A study of Mus musculus with 24 samples.

Results

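The nuclear-encoded subunits of the mitochondrial respiratory chain were followed in the livers of streptozotocin-treated mice with and without dietary quercetin. The members were the probe sets with a single gene symbol that begins with Ndufa, Ndufb, Ndufc, Ndufs, Ndufv, Uqcr, Cox4 to Cox8 or Atp5, or that is Sdha, Sdhb, Sdhc or Sdhd, leaving out the assembly factors named Ndufaf. They were 82 genes with 169 probe sets, of 18194 genes on the arrays, and the brightest probe set, by its mean over all arrays, stood for each gene. Of the 82 genes, 79 passed a filter on low signal that 13114 genes passed in all. The other 3, Cox7b2, Cox8b and Ndufb4, lay under it and were not tested. The 79 tested genes were 33 of complex I, 4 of complex II, 8 of complex III, 15 of complex IV and 17 of complex V, with Cox7a2l and Ndufa4l2, whose names begin like those of subunits, counted apart. Subunits encoded by mitochondrial DNA and Cyc1 do not fall under these names.

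All 24 mice were male BALB/c, with no genetic modification given, obtained at 6 weeks of age, and each gave 1 array of total liver RNA. Control mice (n = 6) were untreated and ate the purified AIN93G diet. The other 3 groups of 6 mice had each received 1 intraperitoneal dose of 185 mg/kg streptozotocin, a toxin of insulin-producing beta cells, and had been taken into the study at a non-fasting blood glucose of 230 to 400 mg/dL 1 week later. They then ate the same diet alone (STZ), or with 0.1% or 0.5% quercetin, a plant flavonol, for 14 days. Controls had no injection of the citrate buffer, so that the injection and streptozotocin cannot be told apart. Mice were kept 3 to a cage, and which mice shared one is not stated in the labels.

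The respiratory chain lies in the inner mitochondrial membrane. Complexes I and II pass electrons from NADH and succinate to ubiquinone, complex III passes them on to cytochrome c and complex IV to oxygen, and complex V uses the proton gradient that complexes I, III and IV build up to make ATP. Each complex has a few catalytic core subunits and many small accessory subunits that help it to assemble or keep it stable. Hepatocytes are rich in mitochondria and use the chain to power gluconeogenesis, urea synthesis and fatty acid oxidation, and several complex IV subunits have an alternative isoform in muscle, lung or testis.

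Correlations between arrays lay between 0.969 and 0.987, and no arrays were identical. The 0.5% quercetin replicates 5 and 6 stood apart from their group. On the first principal component of all genes tested (22.4% of the variance) they lay at -17.2 and -19.2, beside the controls at -18.3 to -13.5, whereas the other streptozotocin-treated mice lay between -0.86 and 19.6. Member results on the 0.5% group are therefore followed, where the call or direction differs or the value moves by over 1.5 times, by the value without them. The Gapdh 3' minus 5' log2 difference, a measure of RNA integrity on these arrays, was also near the controls in this pair, at -0.05 and 0.00, against -0.41 to -0.15 in the other 4 mice of the group. Of 6 hepatocyte markers, 6 lay over the filter, and their summed intensity per mouse ranged from 34054 to 37666 over all groups. Of 7 markers of brown fat and muscle, Ucp1, Cidea, Myh1, Mb and Tnnt3 lay under the filter, and the list summed to 10.5 to 30.3 in every mouse. Summed Kupffer cell markers (8 of 9 over the filter, Marco under it) were 1038 to 1353 in controls and 1407 to 1814 in STZ mice. Summed B cell markers (3 of 4 over it, Cd79a under it) were 156 to 306 and 38.8 to 88.7, and summed exocrine pancreas markers (2 of 3 over it, Cpa1 under it) were 475 to 647 and 168 to 261. Of the 2 pancreas markers over it, 0 had a higher mean in STZ mice than in controls and 1 passed as lower (1.69% of all genes did; limma, adjusted p under 0.05). At 0.1% and at 0.5% quercetin 1 of the 2 had a higher mean than in controls, so that the sum does not stand for both. The part of these cell types in the results below was not tested. In bulk liver, fewer cells of a type and less RNA per cell cannot be told apart.

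Most respiratory chain subunits were strongly and evenly expressed in all 24 livers. Levels are given as log2(intensity + 16) after quantile normalization, a scale on which the filter lay at 4.31. Of the 79 tested genes, 71 had a mean level between 8.41 and 12.64. The other 8 were much dimmer, between 4.35 and 5.83. They were the alternative isoforms Cox4i2, Cox6a2, Cox6b2, Cox7a1 and Cox8c, the paralogue Ndufa4l2, and Cox7c and Ndufb1, for which the low value is that of the probe set. The SD between mice of one group had a median of 0.10 over the 79 genes, from 0.06 for Cox5b to 0.35 for Ndufs8. It was 0.19 over all genes tested and 0.16 over 1529 other genes in the same range of levels.

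**Figure D1:**
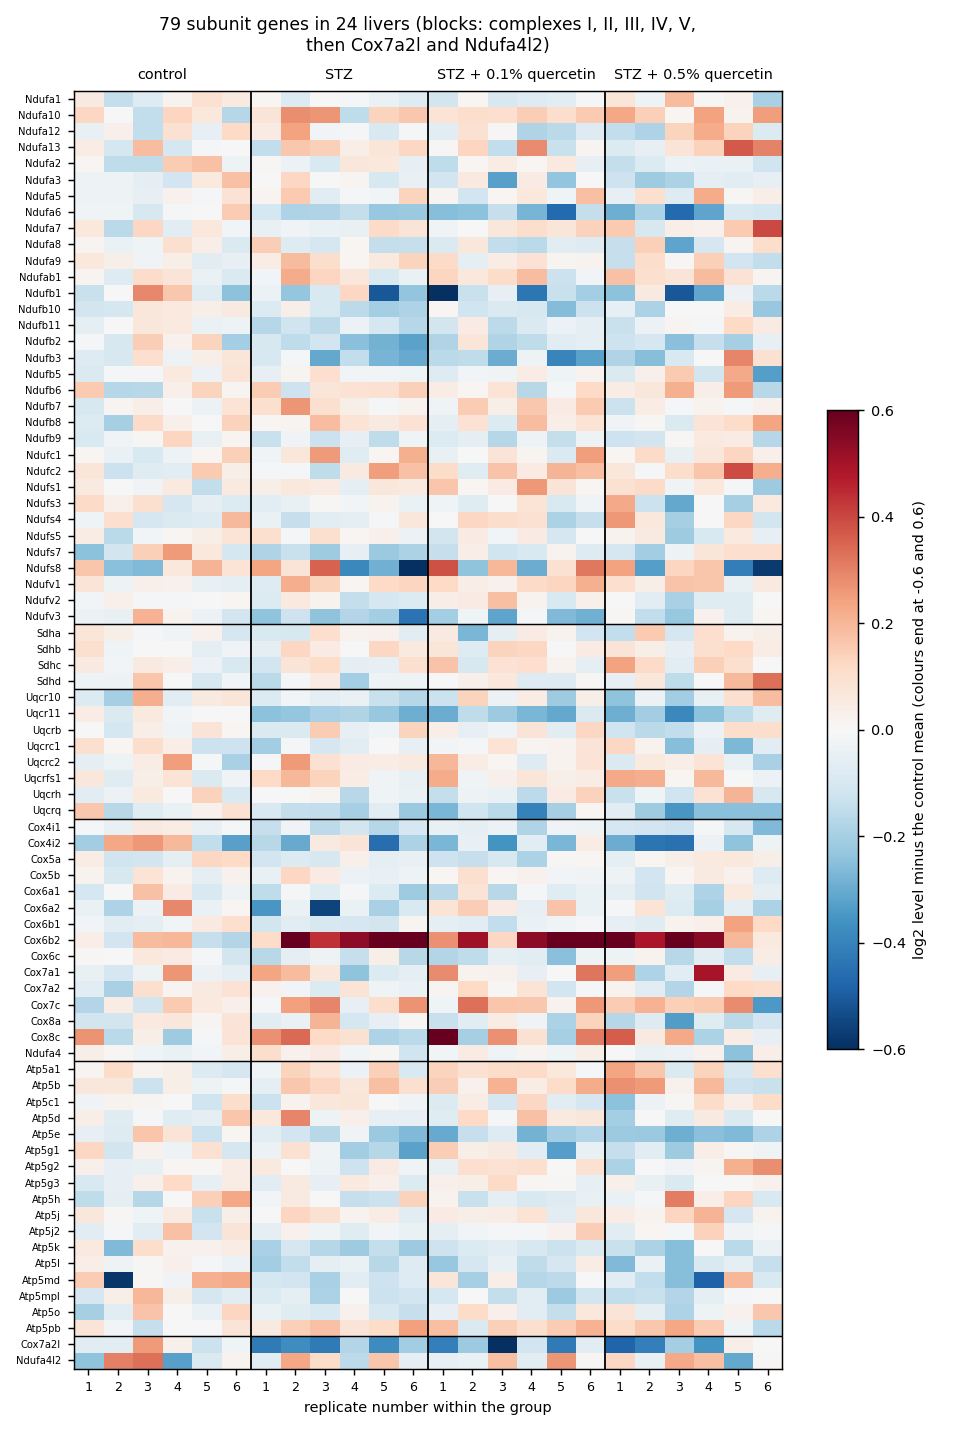
Difference of each mouse from the control mean (colour, log2 scale, ending at -0.6 and 0.6) for the 79 tested subunit genes (rows, by complex) in 24 livers (columns, by group). Most cells are pale. The rows of Cox6b2, Cox7a2l, Uqcr11 and Ndufa6 differ from the controls in most streptozotocin-treated mice, and Ndufs8 varies within every group.

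The first comparison, STZ against control, addressed whether the chain changed in the diabetic liver. Only Uqcr11, a small accessory subunit of complex III, passed the test, at 0.854 of its control level. Of the 79 genes, 0 were higher and 1 lower (1.27% lower, where 1.69% of all genes tested were lower and 2.03% higher; limma, adjusted p under 0.05 over 13114 genes). At an unadjusted p under 0.05 there were 1 higher and 10 lower, or 13.9% of the members against 16.7% of all genes. The lower ones made up 12.7% of the members and 9.4% of all genes. The median change of the members was -0.01, beside -0.02 over all genes, and 34 of 79 (43.0%, against 44.7% of all genes) had a higher mean in STZ mice. In 77 of 79 (97.5%, against 86.4% of all genes) the change was under 0.25 in size, with Cox7a2l and Cox6b2 outside. The 95% interval of the change lay within 1.5-fold either way for 78 of 79 members (98.7%, against 91.8% of all genes) and within 1.25-fold for 64 (81.0%, against 46.4%).

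**Figure D2:**
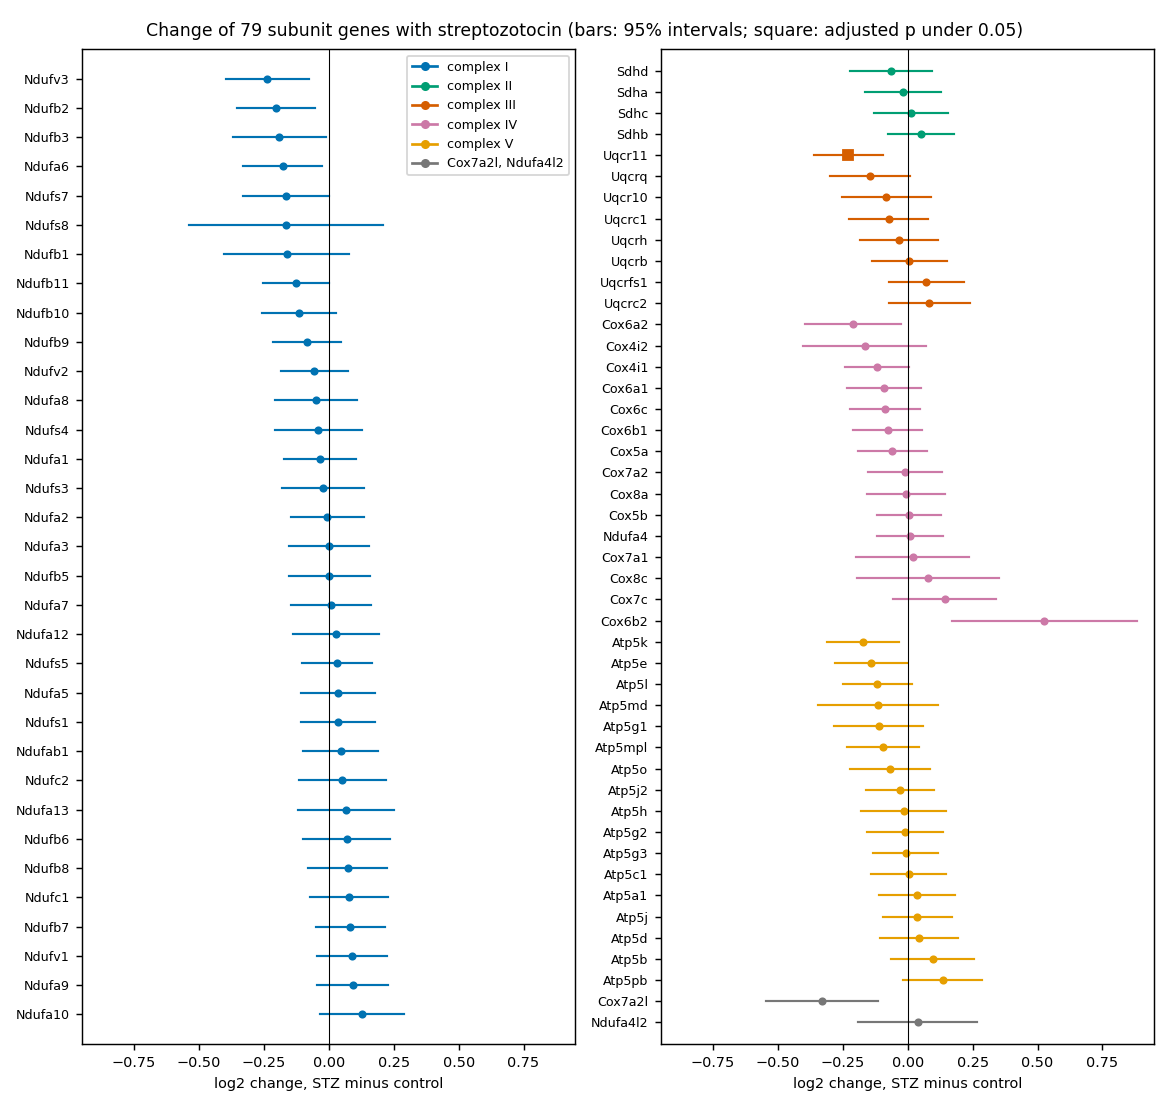
Change of each of the 79 subunit genes between STZ and control mice (n = 6 each), on the log2 scale, with 95% intervals (bars), ordered within each complex. The square marks Uqcr11, which passed the test, at -0.23. The points of Cox7a2l (-0.33) and Cox6b2 (0.53) lie farthest from 0.

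Complex III had the called gene. Uqcr11 had levels of 10.39, 10.48 and 10.54 in controls (lowest, median and highest of 6 mice), 10.18, 10.25 and 10.30 in STZ mice, 10.17, 10.23 and 10.39 at 0.1% quercetin, and 10.09, 10.25 and 10.41 at 0.5% quercetin. All STZ mice lay below all controls, and both quercetin groups reached into the lowest control. Its change with streptozotocin was -0.23 (SE 0.065, 95% interval -0.36 to -0.09, limma adjusted p = 0.0458). The call rested on a narrow margin. It ended when any of 11 of the 12 mice compared was left out (adjusted p of 0.0561 to 0.111) and held without control replicate 2 (adjusted p = 0.0491), and on the values as deposited the change was -0.18 (adjusted p = 0.768). The other 7 complex III genes did not pass. They ran from -0.15 for Uqcrq, an accessory subunit, to 0.08 for Uqcrc2, one of the large core proteins.

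Among the 33 complex I genes, which take electrons from NADH, 0 passed. The 6 core subunits had changes between -0.17 (Ndufs7) and 0.09 (Ndufv1), and the 27 accessory subunits between -0.24 (Ndufv3) and 0.13 (Ndufa10). Ndufv3, a small accessory subunit of the NADH-binding arm, had levels of 10.33, 10.40 and 10.64 in controls and 9.99, 10.22 and 10.31 in STZ mice. These groups did not overlap. Its change was -0.24 (SE 0.078, limma adjusted p = 0.0882). Ndufa6, an accessory subunit of the LYR family, had levels of 9.42, 9.50 and 9.67 in controls and 9.29, 9.34 and 9.41 in STZ mice, again without overlap, with a change of -0.18 (SE 0.074, limma adjusted p = 0.207). Ndufb2, of the membrane arm, differed by -0.20 (SE 0.073, limma adjusted p = 0.13), and 3 of 6 STZ mice lay below all controls. Its other probe sets over the filter gave -0.08 and -0.02.

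Cox7a2l encodes a factor reported to join complexes III and IV into supercomplexes, and whether it does so in these BALB/c livers was not tested. Its levels were 8.57, 8.65 and 8.95 in controls and 8.27, 8.32 and 8.52 in STZ mice, and every STZ mouse lay below every control. The difference of -0.33 (SE 0.105, limma adjusted p = 0.079) did not pass. The 3 probe sets of Cox7a2l had changes of -0.33, -0.34 and -0.38, and with their mean as the gene's value the change of -0.35 passed (limma adjusted p = 0.0178). Cox6b2, the testis isoform of a complex IV subunit, was near the filter, with levels of 4.15, 4.29 and 4.52 in controls and 4.43, 4.90 and 5.05 in STZ mice, 5 of which lay above all controls. Its change was 0.53 (SE 0.17, limma adjusted p = 0.0903).

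The groups did not overlap for 5 members, all lower in STZ mice (6.33%, where 2.23% of all genes were lower without overlap), and for 0 members in the other direction (1.96% of all genes). They were Uqcr11, Cox7a2l, Ndufv3, Ndufa6 and Atp5l, a subunit of the membrane part of complex V. Atp5l was chosen after its values were seen, with a change of -0.12 (SE 0.065, limma adjusted p = 0.378). The Gapdh 3' minus 5' difference also differed between these groups. It was -0.04 ± 0.16 in controls (SD, n = 6), with the highest value, 0.26, in replicate 3, and -0.34 ± 0.09 in STZ mice. With that difference as a covariate, Uqcr11 differed by -0.15 (limma adjusted p = 0.68), Ndufa6 by -0.15, Ndufv3 by -0.07, Cox7a2l by -0.07 and Cox6b2 by 0.50. With it, 4 genes of all tested were still higher and 1 lower, none of them members. Because the covariate differs with treatment, it takes up part of any group difference. RNA integrity and streptozotocin therefore cannot be told apart, here or in the comparisons with control below.

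**Figure D3:**
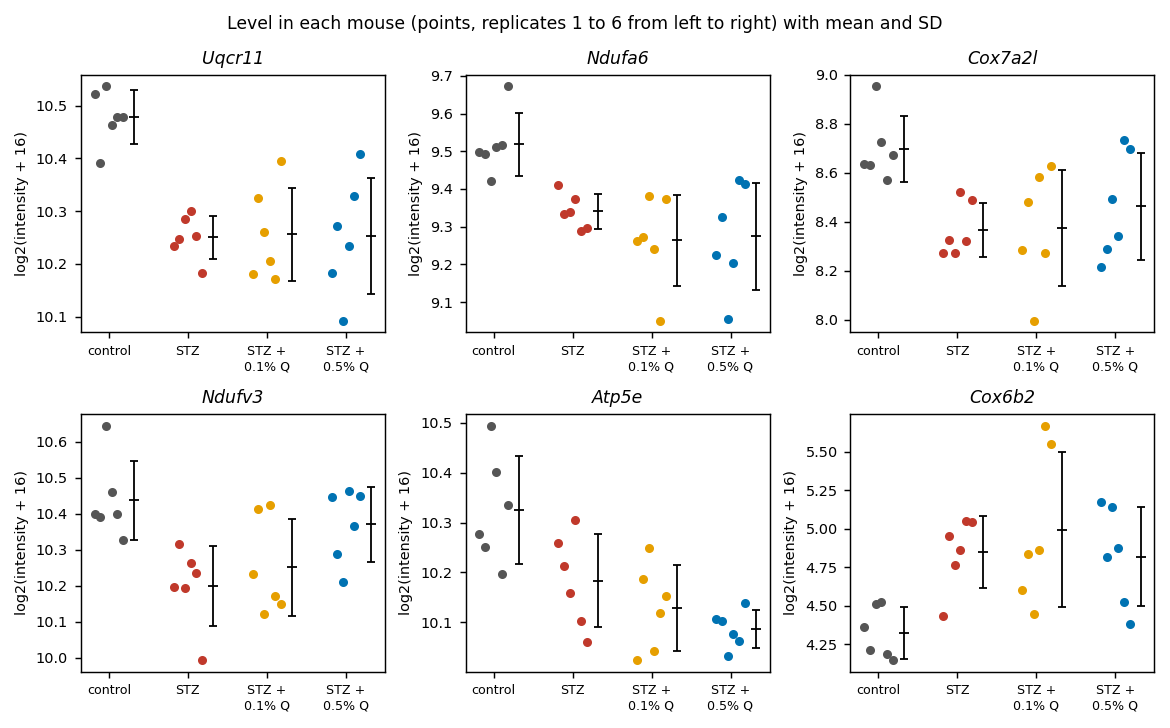
Level of 6 genes, as log2(intensity + 16), in each mouse (points) of the 4 groups (n = 6 each), with the group mean and SD beside them; Q stands for quercetin and the vertical axes do not start at 0. For Uqcr11, Ndufa6, Cox7a2l and Ndufv3 the STZ points lie below all control points. For Cox6b2, 5 of 6 STZ points lie above them.

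Promoter stretches of 3 genes with lower levels in streptozotocin-treated mice (Uqcr11, Ndufa6 and Atp5e) are shown beside those of a pair with little difference (Cox6a1 and Sdhb), because nuclear-encoded subunits are known to share sites for the activators NRF1 and GABP, an ETS factor, and for ERR and YY1. RefSeq windows of 300 bases, from 250 before to 50 after the start of transcription, were matched for 67 of the 82 members (72 windows), on the build GRCm38.p6. The 5 genes were picked among those that hold a motif, after their values were seen. Cox6b2, Cox7a2l, Ndufv3 and Ndufb2, with some of the largest changes with streptozotocin, held none of the motifs searched and are not shown. Capitals mark the motif, each line runs 5′ to 3′ on the gene's strand, and each stretch ends before the start site.

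Uqcr11, GABP motif CCGGAAG, 66 bases before the start, chr10:80406861-80406907, minus strand: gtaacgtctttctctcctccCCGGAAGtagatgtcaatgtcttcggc
Ndufa6, NRF1 core GCATGCGC, 83 bases before the start, chr15:82354347-82354394, minus strand: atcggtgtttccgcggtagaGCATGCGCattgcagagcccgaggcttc
Atp5e, GABP motif read on the other strand, 102 bases before the start, chr2:174464177-174464223, minus strand: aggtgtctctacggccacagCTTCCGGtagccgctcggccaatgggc
Cox6a1, NRF1 full palindromic site, 162 bases before the start, chr5:115349091-115349140, minus strand: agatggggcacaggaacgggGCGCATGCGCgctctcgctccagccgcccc
Sdhb, NRF1 core, 54 bases before the start, chr4:140961197-140961244, plus strand: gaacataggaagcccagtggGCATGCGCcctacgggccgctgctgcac

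Searched on both strands, the NRF1 core GCATGCGC was in 12.5% of the member windows and in 2.71% of all 32851 windows, and the full palindromic site, which contains the core, in 5.56% and 0.971%. The GABP motif CCGGAAG was in 23.6% and 8.86%, the YY1 motif AAGATGGC in 12.5% and 2.75%, and the ERR motif TCAAGGTCA in 2.78% and 0.423%. By gene, 17 of 67 held the GABP motif, 9 the NRF1 core, 9 the YY1 motif and 2 the ERR motif. Of the 9 genes with the YY1 motif, 6 were of complex I and 3 of complex V. Uqcr11 and Ndufa6, with the lower levels given above, and Cox6a1 and Sdhb, with changes of -0.09 and 0.05, all held the NRF1 core, Uqcr11 4 bases before its start. A match is a description of these letters and not a measured site.

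The second comparison, 0.1% quercetin against STZ, addressed whether the lower dose changed the chain in the diabetic liver. No member passed (0 higher and 0 lower of 79, as for 0% of all genes; limma), and 1 (1.27%) had an unadjusted p under 0.05, against 5.24% of all genes. The median change was 0.01, beside 0.01 over all genes, and 47 of 79 means (59.5%, against 52.1% of all genes) were higher. The 95% interval lay within 1.25-fold for 74 of 79 members (93.7%, against 58.2% of all genes). The smallest p was that of Cox6a2, the heart and muscle isoform of a complex IV subunit. It lay near the filter in every group, at 4.05, 4.46 and 4.56 in STZ mice and 4.56, 4.67 and 4.78 at 0.1% quercetin, with a difference of 0.27 (SE 0.090, limma adjusted p = 0.87). All 6 core subunits of complex I had higher means than in STZ mice, with a median of 0.08, and 9 of 27 accessory subunits did, with a median of -0.02. Among the core subunits Ndufs8, an iron-sulfur subunit, differed by 0.24 (SE 0.18, limma adjusted p = 0.992). That difference was 0.08 without STZ replicate 6 and 0.34 without STZ replicate 3, and the other 5 probe sets of Ndufs8 gave -0.03 to 0.05. Its STZ levels spread from 9.61 to 10.94 and overlapped those at 0.1% quercetin, 10.28 to 10.97. Ndufv2, another iron-sulfur core subunit, differed by 0.09, Ndufb2 by 0.11 and Uqcrc1, a core protein of complex III, by 0.10 (limma adjusted p = 0.986 for the last). Uqcr11 was 0.01 from its STZ level (95% interval -0.13 to 0.14) and Cox7a2l 0.01 (-0.21 to 0.22). The other probe sets of Cox7a2l gave 0.15 and 0.16, so that its likeness to STZ mice holds for the probe set used.

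The third comparison, 0.5% quercetin against STZ, gave 0 higher and 0 lower of 79 (0% of all genes passed; limma). At an unadjusted p under 0.05 there were 2 (2.53%, against 7.51% of all genes), Ndufv3 and Ndufb11, both of complex I and both higher. The median change was 0.00, and the 95% interval lay within 1.25-fold for 75 of 79 (94.9%, against 54.7% of all genes). The split within complex I seen at 0.1% quercetin did not recur over all 6 mice of this group. Here 2 of 6 core subunits had higher means than in STZ mice, with a median of -0.01, and 16 of 27 accessory subunits did, with a median of 0.01. Ndufv3 had levels of 10.21, 10.40 and 10.46 at 0.5% quercetin, with 4 of 6 mice inside the control range and a difference from STZ of 0.17 (SE 0.078, limma adjusted p = 0.63). With the Gapdh difference as a covariate it was 0.10 (limma adjusted p = 0.941). The comparisons of quercetin with STZ share the STZ mice with the first comparison. A low STZ mean therefore enters both, and a fall in the first and a rise here are not independent. Ndufb11 had levels of 10.64, 10.68 and 10.78 in STZ mice and 10.68, 10.82 and 10.93 at 0.5% quercetin, a difference of 0.13 (limma adjusted p = 0.663). Cox8a, the isoform of a complex IV subunit present in liver, differed by -0.15 (limma adjusted p = 0.668), Cox6b1, the body-wide isoform beside Cox6b2, by 0.13 (adjusted p = 0.673), and Ndufs7, an iron-sulfur core subunit, by 0.15 (adjusted p = 0.687). Uqcr11 was again at its STZ level, with a difference of 0.00 (95% interval -0.13 to 0.14). Without replicates 5 and 6 of this group the count was also 0. Cox6b1 then differed by 0.06 and Ndufs7 by 0.10, and Uqcr11 differed by -0.05, Ndufa6 by -0.14 and Ndufv3 by 0.15.

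**Figure D4:**
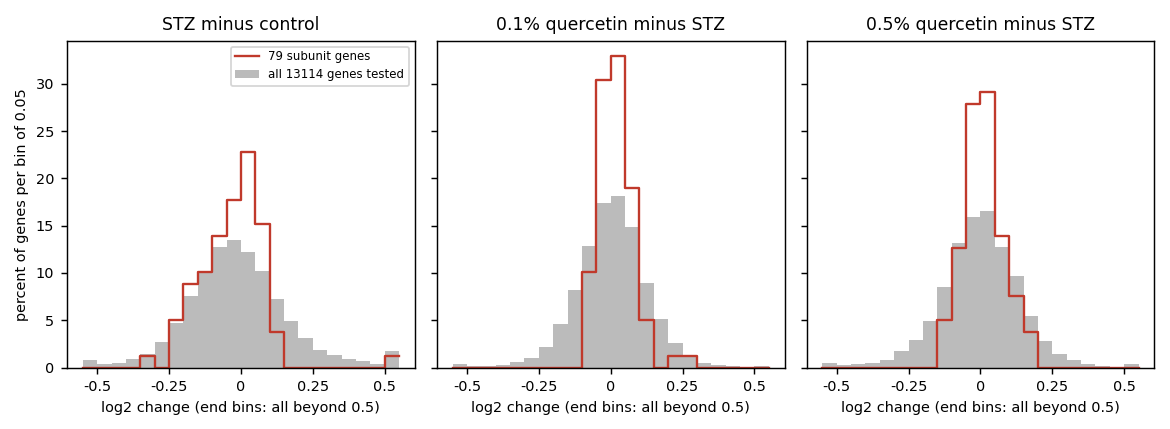
Share of genes per bin of 0.05 in log2 change (end bins hold all genes beyond 0.5 either way) for the 79 subunit genes (red line) and all 13114 genes tested (grey), in 3 comparisons of 6 against 6 mice. The red line is narrower than the grey in each. It is centred near 0, with medians of -0.01, 0.01 and 0.00.

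Each quercetin group was also set against the controls. These comparisons share the control mice with the first, so that likeness between them is not independent. At 0.1% quercetin, Ndufa6 and Uqcr11 were lower and Cox6b2 was higher than in controls. These were 1 higher and 2 lower of 79 (1.27% and 2.53%, beside 2.94% and 2.64% of all genes; limma). At an unadjusted p under 0.05 there were 9 (11.4%, against 18.9% of all genes), 8 of them lower (10.1%, against 10% of all genes). Ndufa6, at 9.05, 9.27 and 9.38, lay below all controls in 6 of 6 mice, with a change of -0.25 (SE 0.074, limma adjusted p = 0.0392). It was the only member without overlap (1.27%, where 1.83% of all genes were lower without overlap). Uqcr11 fell by 0.22 (SE 0.065, limma adjusted p = 0.0408), with 5 of 6 mice below all controls. Cox6b2, at 4.45, 4.85 and 5.67, had 5 of 6 mice above all controls and a change of 0.67 (SE 0.17, limma adjusted p = 0.0198). Its control mean lay at the filter, so that the size of this change depends on the constant added, and it was 1.72 with a constant of 1 and 0.25 with 64, past the threshold with each. Replicates 5 and 6 had its highest levels, 5.67 and 5.55.

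The Ndufa6 call ended without 8 of the 12 mice in turn (limma adjusted p of 0.0598 to 0.118), and held without control replicate 3 and without 0.1% quercetin replicates 2, 3 or 6. The Uqcr11 call ended without 9 of the 12 (adjusted p of 0.0648 to 0.0981), and held without control replicate 2 and without 0.1% quercetin replicates 2 or 6. The Cox6b2 call ended without 0.1% quercetin replicate 5 (0.54, adjusted p = 0.0692) or 6 (0.56, adjusted p = 0.0653). The Gapdh difference was -0.31 ± 0.13 in this group (SD, n = 6), and with it as a covariate the changes were -0.23 for Ndufa6, -0.15 for Uqcr11 and 0.64 for Cox6b2, and none passed (limma adjusted p of 0.318, 0.456 and 0.234). Among members that did not pass, Cox7a2l differed by -0.32 (limma adjusted p = 0.0698). Its other probe sets gave -0.18 and -0.21.

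At 0.5% quercetin, 0 of 79 members passed against control, where 0.0534% of all genes were higher and 0.0763% lower (limma). At an unadjusted p under 0.05 there were 9 (11.4%, against 12.3% of all genes), of which 8 were lower (10.1%, against 6.98% of all genes). Atp5e, the epsilon subunit in the rotating stalk of complex V, had levels of 10.20, 10.31 and 10.49 in controls, 10.06, 10.19 and 10.31 in STZ mice, 10.02, 10.14 and 10.25 at 0.1%, and 10.03, 10.09 and 10.14 at 0.5% quercetin. All mice at 0.5% quercetin lay below all controls. Its differences from control were -0.14, -0.20 and -0.24 in that order (SE 0.067 each, limma adjusted p of 0.28, 0.0876 and 0.134). Atp5e and Atp5l were the members without overlap, both lower (2.53%, against 0.458% of all genes). Uqcr11 differed by -0.23, Ndufa6 by -0.24, Uqcrq by -0.23 and Cox6b2 by 0.49 (limma adjusted p of 0.143, 0.163, 0.197 and 0.229). Without 0.5% quercetin replicates 5 and 6, which for Uqcr11 read 10.33 and 10.41 and for Ndufa6 9.43 and 9.41, 3 members passed. They were Ndufa6 at -0.32 (limma adjusted p = 0.0221), Uqcr11 at -0.28 (adjusted p = 0.0211) and Cox6b2 at 0.69 (adjusted p = 0.0395). This pair was set apart for lying beside the controls. Leaving it out therefore moves the group away from the controls, and the 3 calls are no independent check. The share of all genes that passed without the pair is not given here. The Gapdh difference over all 6 mice was -0.22 ± 0.18 (SD), and with it as a covariate Ndufa6 differed by -0.23, Uqcr11 by -0.18 and Cox6b2 by 0.48 (limma adjusted p of 0.371, 0.406 and 0.433).

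Between the doses, 0 of 79 members passed (0% of all genes; limma), and 1 (1.27%, against 8.34% of all genes) had an unadjusted p under 0.05. This was Ndufb3, a membrane-arm subunit of complex I, at 8.67, 8.84 and 9.04 with 0.1% and 8.81, 9.02 and 9.36 with 0.5% quercetin. The groups overlapped, and the difference was 0.20 (SE 0.088, limma adjusted p = 0.548). Without 0.5% quercetin replicates 5 and 6 it was 0.09 (adjusted p = 0.978). Cox5a differed by 0.11, Cox6b1 by 0.11, Ndufv2 by -0.11 and Cox8a by -0.12, and without that pair Cox6b1 differed by 0.04. The 95% interval lay within 1.25-fold for 73 of 79 members.

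By complex, the mean over its genes lay between -0.07 and 0.05 of the control mean in every group. The mean over all 79 genes, per mouse and relative to the control mean, was 0.00 ± 0.03 in controls (SD, n = 6), -0.03 ± 0.03 in STZ mice, -0.01 ± 0.03 at 0.1% and -0.02 ± 0.03 at 0.5% quercetin. Complex III was lowest, at -0.05 ± 0.03 in STZ mice, -0.04 ± 0.05 at 0.1% and -0.07 ± 0.05 at 0.5% quercetin, beside a control SD of 0.05. Complex II was highest, at 0.05 ± 0.08 at 0.5% quercetin, and at 0.03 ± 0.09 (n = 4) without replicates 5 and 6. Complex II is succinate dehydrogenase, an enzyme of both the citric acid cycle and the chain, and none of its 4 genes passed in any comparison. Sdha, the flavoprotein, differed from control by -0.02 in STZ mice, -0.05 at 0.1% and 0.01 at 0.5% quercetin, and Sdhb, the iron-sulfur subunit, by 0.05, 0.05 and 0.05. The membrane anchors Sdhc and Sdhd differed by 0.01 and -0.07, by 0.04 and -0.01, and by 0.09 and 0.07. Other probe sets over the filter gave, for STZ against control, -0.12 and 0.04 for Sdha, -0.18 for Sdhc and 0.22 for Sdhd. Without 0.5% quercetin replicates 5 and 6, Sdhd differed from control by -0.03 and Sdha by 0.0017.

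**Figure D5:**
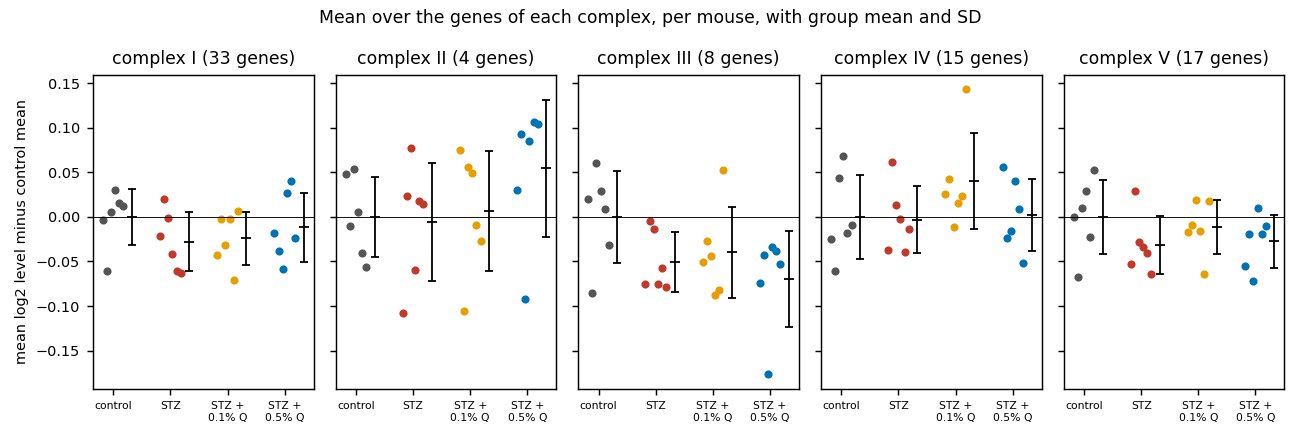
Mean log2 level over the genes of each complex in each mouse (points), relative to the mean of the 6 controls, with the group mean and SD beside them (Q stands for quercetin). Group means lie between -0.07 (complex III at 0.5% quercetin) and 0.05 (complex II at 0.5% quercetin), within about the spread of single mice.

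Several complex IV subunits come in alternative forms. Each isoform has its own probes, so that levels are compared between groups and not between isoforms. Cox4i1, the common form of the first nuclear-encoded subunit, had levels of 11.34, 11.37 and 11.44 in controls, 11.21, 11.26 and 11.36 in STZ mice, 11.20, 11.34 and 11.36 at 0.1%, and 11.12, 11.27 and 11.37 at 0.5% quercetin. It differed from control by -0.12, -0.06 and -0.12. Its lung isoform Cox4i2 lay between 4.03 and 4.75 in all mice and differed by -0.16, -0.16 and -0.25. The liver isoforms Cox6a1 and Cox7a2 differed from control by at most 0.09 in size in each group. Without 0.5% quercetin replicates 5 and 6, Cox6a1 differed by -0.11 and Cox7a2 by -0.06 at that dose. Cox7a1, a heart and muscle isoform, had group medians of 4.66 to 4.72, and Cox8b, also of heart and muscle, stayed under the filter with group medians of 4.04 to 4.10. Ndufa4, a subunit of complex IV despite its name, had group medians of 10.87 to 10.90, and Ndufa4l2, its hypoxia-induced paralogue, of 4.48 to 4.58. Of the 6 alternative forms tested, only Cox6b2 passed in any comparison.

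Genes around the chain were described from lists chosen with earlier results of these data known. Of 39 tested assembly factors, which build the complexes and are no part of them, 0 were higher and 2 lower in STZ mice than in controls (5.13% lower, where 1.69% of all genes were lower). Their median change was -0.08, beside -0.02 over all genes, and 10 of 39 means (25.6%, against 44.7% of all genes) were higher. Both act on complex I. Ndufaf8 had levels of 8.04, 8.14 and 8.51 in controls and 7.69, 7.81 and 7.96 in STZ mice, without overlap, and fell by 0.39 (SE 0.088, limma adjusted p = 0.0113). Ecsit fell by 0.30 (SE 0.085, limma adjusted p = 0.044). At 0.1% quercetin, Ndufaf8 (-0.37, limma adjusted p = 0.0106), Ecsit (-0.34, adjusted p = 0.0143) and Timmdc1, another complex I assembly factor (-0.50, adjusted p = 0.0104), were lower than in controls (7.69% of the list, where 2.64% of all genes were lower). Of 17 electron carriers and other feeders of the chain, 0 passed in STZ mice. At 0.1% quercetin Sqor, which passes electrons from sulfide to ubiquinone, was higher than in controls (0.38, limma adjusted p = 0.0186) and Coq8a, needed for ubiquinone synthesis, was lower (-0.68, adjusted p = 0.0477), 5.88% of the list each, where 2.94% of all genes were higher and 2.64% lower. The Coq8a call ended without 0.5% quercetin replicates 5 and 6, which enter the spread (limma adjusted p = 0.0516). Cycs, cytochrome c, and Cyc1, cytochrome c1 of complex III, differed in STZ mice by 0.13 (SE 0.088) and 0.01 (SE 0.063).

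Of 13 citric acid cycle genes, 19 regulators of mitochondrial biogenesis and DNA upkeep, and 15 carriers, pores and membrane genes, 0 passed in STZ mice, with median changes of 0.06, -0.07 and -0.04. At 0.1% quercetin 1 of these, Dnm1l, the GTPase of mitochondrial fission, was lower than in controls (-0.33, limma adjusted p = 0.0438). This was 6.67% of the last list, where 2.64% of all genes were lower. Ppargc1a, the coactivator that drives mitochondrial biogenesis and gluconeogenesis, had levels of 4.86, 5.00 and 5.10 in controls, 4.96, 5.29 and 5.51 in STZ mice, 5.11, 5.29 and 5.37 at 0.1%, and 4.75, 5.34 and 5.44 at 0.5% quercetin. Its differences from control were 0.27, 0.28 and 0.27 (SE 0.11 each), and none passed (limma adjusted p of 0.198, 0.148 and 0.29). Its partner Esrra, the ERR alpha receptor, differed in STZ mice by 0.24, Nrf1 by 0.14, and Gabpa, the DNA-binding subunit of GABP, by -0.07. Tfam, which packs mitochondrial DNA and helps to start its transcription, differed by -0.11, and Ppargc1b, a coactivator related to Ppargc1a, by -0.07. None of these passed. With the Gapdh difference, which was lower in STZ and 0.1% quercetin mice than in controls, as a covariate, 0 genes of these 5 lists passed in any comparison. Ndufaf8 then differed from control by -0.26 in both groups (limma adjusted p of 0.525 in STZ mice and 0.326 at 0.1% quercetin). In the comparisons of quercetin with STZ, of 0.5% quercetin with control and between the doses, 0 genes of these lists passed. Without 0.5% quercetin replicates 5 and 6, Ndufaf8 (-0.36, limma adjusted p = 0.0301) and Pet100, a complex IV assembly factor (-0.40, adjusted p = 0.0331), were lower at 0.5% quercetin than in controls. As that pair was set apart for lying beside the controls, these calls are no independent check. The share of all genes that passed without it is not given here.

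The choice of probe set mattered for many small differences. Of the 79 genes, 45 had several probe sets over the filter, and for STZ against control 20 of these had changes of both signs. The widest range was that of Ndufab1, 0.37 between its probe sets. Uqcr11, Ndufa6, Ndufv3, Atp5e and Cox6b2 each had 1 probe set, so that their differences have no check of this kind on the arrays.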

How the data were processed

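Biotin-labelled RNA from each of 24 livers was hybridised to 1 Affymetrix expression array, per the labels' protocols. Linear intensities were deposited, 1 for each of 45101 probe sets (64 of them control probe sets) and array, and the algorithm and any scaling behind them are not given in the sources used here. They had no detection call. Mean intensity per array ranged from 61.0 to 102.0, a ratio of 1.67. The number of arrays limits the precision.

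From these, intensities were quantile normalized over the 24 arrays and converted to log2(intensity + 16), which understates folds of dim genes. Probe sets were named from the platform annotation (34958 with 1 symbol, 932 with several, 9211 with none), and 82 of 82 members matched the RefSeq gene table of GRCm38.p6 by gene ID. The probe set with the highest mean stood for its gene, and genes whose mean fell short of the 40th percentile over probe sets (an intensity of 3.88) were left out. All 4 group means were fitted together with limma 3.58.1 (R 4.3.3), and two-sided p-values were adjusted over 13114 genes by the Benjamini-Hochberg method, with calls under 0.05. The procedure was checked on simulated data. The 6 mice of a group were taken as independent, since the labels name no cage or batch for a mouse. P-values set a difference between group means against the spread between mice, pooled over the 4 groups and moderated across genes. Any likeness between mice of the same cage is not taken into account.

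Array numbers shared by the groups come with no statement that they mark a shared cage or day, and in no comparison did all same-numbered arrays deviate together (correlations of -0.07 to 0.08 for STZ and control, with 0 of 6 over 0.1; in the other comparisons 0 to 2 of 6 were, up to 0.32 between 0.1% quercetin and STZ). The main fit therefore had no block. The members and the lists of related and marker genes were chosen with earlier results of these data known. The genes named were all members past the threshold, up to 5 members with the smallest p where fewer than 3 passed, the isoform pairs, the 4 Sdh genes, and 8 related genes with those of the related lists that passed. Others are said to have been chosen after their values were seen. Extremes given for a complex are named as its range. Alternatives covered the scaling, the constant, the filter, the choice of probe set, the groups in the fit, a block, a Gapdh covariate, trend and robust variance, and leaving out mice. A planned comparison of protein sequences between isoforms was not made, because no protein sequences were used here.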

Additional observations from a re-analysis of the deposited data

Results flagged for a closer look

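Among 148 sets of 6 mice examined (30 named members and 7 means, those over each complex, over all members and over the genes of no complex, in each group), 11 had 1 mouse far from the other 5, by a gap of more than 0.625 of the group's range. Chance gives about 1 in 20, and no cause was tested.

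In complex IV, Cox4i1 read 11.20 in 0.1% quercetin replicate 4, with the nearest mouse at 11.32, and Cox6b1 read 11.63 in STZ replicate 6, with the nearest at 11.55. Cox8a read 9.67 in STZ replicate 3 (nearest 9.47) and 9.13 in 0.5% quercetin replicate 3 (nearest 9.30). Ndufa4 read 10.64 in 0.5% quercetin replicate 5, below the nearest mouse at 10.84. The heart and muscle isoforms Cox7a1 and Cox8b, both near or under the filter, read 4.96 in control replicate 4 (nearest 4.67) and 4.20 in control replicate 3 (nearest 4.08). In complex II, Sdhd read 9.50 in control replicate 3, above the nearest mouse at 9.34.

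Among the means over a complex, relative to the control mean, complex I was at -0.060 in control replicate 2, with the nearest control at -0.0032. Complex III was at -0.177 in 0.5% quercetin replicate 3, with the nearest mouse at -0.0737. Complex IV was at 0.144 in 0.1% quercetin replicate 6, with the nearest at 0.0425. The last mouse also had one of the highest Cox6b2 levels, 5.55, and Cox6b2 is 1 of the 15 genes in that mean.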

How the results depend on the processing

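Among the 30 named members, no change that passed reversed under any alternative. Over 13 settings, 2244 values of these named members gave 2203 with the same call, 13 that no longer passed and 28 that newly passed. Members not named are left out of these values. Of the 2203, 2031 kept their direction and 172, none of which passed, changed sign. Of members called between STZ and control (1 in the report), there were 0 on the values as deposited, 3 with median scaling (all lower), 2 with trimmed mean scaling, 4 with a constant of 64 (all lower), 2 with the mean of all probe sets, 3 with only the groups compared in the fit, 2 with trend and robust variance, 0 with the Gapdh covariate and 2 without 0.5% quercetin replicates 5 and 6. Between 0.1% quercetin and control (3), there were 1 as deposited, 5 with median and 5 with trimmed mean scaling, 1 with only the groups compared and 0 with the Gapdh covariate. Between 0.5% quercetin and control (0), there were 10 with median scaling, all lower, and 3 without replicates 5 and 6. The share of all genes that passed in each setting is not given beside these counts, so that they are no result about the members. With a replicate block, 0 members passed between STZ and control (Uqcr11, limma adjusted p = 0.0791) and 1 between 0.1% quercetin and control (Cox6b2), and the block moved no other count. In each comparison 0 to 2 of 6 arrays correlated best with their own number. This cannot tell whether the numbers mark a shared cage or day.

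Scaling moved the medians of the members. On the values as deposited they were 0.0526 (STZ minus control), -0.0585 (0.1% quercetin minus STZ), -0.104 (0.5% minus STZ), -0.0642 (0.5% minus control) and -0.0551 (0.5% minus 0.1%). With median scaling they were -0.0987 (STZ minus control), -0.0842 (0.5% minus STZ), -0.108 (0.1% minus control), -0.197 (0.5% minus control, beside -0.0942 over all genes) and -0.0806 (0.5% minus 0.1%), and with trimmed mean scaling -0.0709 (STZ minus control) and -0.0494 (0.1% minus control). In the main setting the median over all genes for 0.5% minus control was -0.0141, so that median scaling moved it as well. The medians over all genes for the other values in this list are not given here. The cause was not tested. Leaving out 1 mouse at a time gave 0 to 2 members called between STZ and control, 0 to 3 between 0.1% quercetin and control, and 0 in the other 4 comparisons. The medians then ranged from -0.02 to 0.00 (STZ minus control), 0.00 to 0.02 (0.1% minus STZ), 0.00 to 0.02 (0.5% minus STZ), -0.02 to 0.01 (0.1% minus control), -0.03 to 0.00 (0.5% minus control) and -0.02 to 0.02 (0.5% minus 0.1%). Signal near the filter limits Cox6b2, whose change between STZ and control was 1.52 with a constant of 1 (limma adjusted p = 0.0499).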
